A study of Homo sapiens with 16 samples.

Results

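The transcripts of 10 genes that set how readily pyruvate enters mitochondrial oxidation are described here in 4 human cell lines. They are the kinase genes PDK1, PDK2, PDK3 and PDK4, the phosphatase genes PDP1 and PDP2, and PDHA1, PDHB, DLAT and PDHX, which encode subunits of the pyruvate dehydrogenase complex. The 10 genes form a list of names, drawn up with earlier results of these data known. Of these, 9 had an array probe set that carried no other gene's symbol, out of 18417 such genes, and 8 were among the 12639 genes tested, which are those above a log2 intensity of 6.27, the median of all values, on at least 2 arrays. Each of the 8 was above that level on 16 of 16 arrays and PDK4 on 0. PDP2 is not analysed here. For each gene the brightest of its single-symbol probe sets stood for it, and each of the 9 had only 1.

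RNA was hybridised to Affymetrix expression arrays from RPMI8226, KMS-11, U266 and IM-9. The first 3 are lines of multiple myeloma, a plasma cell cancer. The labels list IM-9 as a myeloma line too, although it is widely described as a B lymphoblastoid line transformed by Epstein-Barr virus. Parental cells of each line were kept at 20% O2 and cells of its hypoxia-resistant subline, written with the suffix HR, at 1% O2, both for 24 h, with 2 arrays in each of the 8 groups. No genotype differs by label within a line, no drug was given, and the labels do not say whether an HR subline is 1 clone. Because HR cells were measured only at 1% O2 and parental cells only at 20% O2, resistance and the oxygen level at harvest cannot be told apart in any comparison below.

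The pyruvate dehydrogenase complex turns pyruvate from glycolysis into acetyl-CoA inside mitochondria. PDHA1 and PDHB form its first enzyme, DLAT carries the acetyl group on a swinging lipoyl arm, and PDHX anchors DLD, the enzyme that reoxidises that arm, to the core. The PDK kinases switch the complex off by phosphorylating PDHA1, and the PDP phosphatases remove the phosphate and switch it on. PDK1 is a textbook target of the transcription factor HIF-1, through which cells short of oxygen divert pyruvate to lactate; PDK4 is best known for its induction by fasting in muscle, heart and liver.

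HIF factors bind DNA at a short core that reads ACGTG or GCGTG, and RefSeq promoter windows of the members (GRCh38.p14, 250 bases ending at the listed start) were searched for those letters on both strands. Of the 10 genes, all but PDP1 matched a window, 13 windows in all, and 8 of the windows held at least 1 match. Across all 35116 windows of this length, 18.5% held ACGTG, 32.2% GCGTG, 43.2% at least 1 match to either motif and 19.4% held at least 2, so a match by itself is common. Below are the windows of the kinase genes with the largest rises and of the subunit that the kinases phosphorylate, PDHA1, with the matches in capitals (CACGT and CACGC are the motifs read on the opposite strand). They lie at chr2:172555840-172556089 for the second listed start of PDK1, at chrX:24465036-24465285 for PDK3 and at chrX:19343677-19343926 for PDHA1, all on the plus strand.
PDK1: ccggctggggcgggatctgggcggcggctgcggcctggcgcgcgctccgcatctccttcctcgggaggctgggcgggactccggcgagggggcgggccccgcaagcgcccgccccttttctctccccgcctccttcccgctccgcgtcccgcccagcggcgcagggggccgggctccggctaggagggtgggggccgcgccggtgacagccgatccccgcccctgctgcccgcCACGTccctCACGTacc
PDK3: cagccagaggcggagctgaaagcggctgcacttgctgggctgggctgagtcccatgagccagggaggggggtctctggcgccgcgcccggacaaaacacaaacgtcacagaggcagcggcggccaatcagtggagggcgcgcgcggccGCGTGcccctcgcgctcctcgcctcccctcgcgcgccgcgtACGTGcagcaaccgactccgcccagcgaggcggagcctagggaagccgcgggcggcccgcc
PDHA1: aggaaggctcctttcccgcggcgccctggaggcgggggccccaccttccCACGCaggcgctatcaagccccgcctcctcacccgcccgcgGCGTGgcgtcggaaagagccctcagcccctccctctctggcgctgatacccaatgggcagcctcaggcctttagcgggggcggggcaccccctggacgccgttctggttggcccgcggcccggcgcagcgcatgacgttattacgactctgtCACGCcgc
The PDK1 window held 2 ACGTG matches and 0 GCGTG matches, both within the last stretch before the start, beginning 17 and 8 bases before it. The window of the other PDK1 start held 0 of either. The PDK3 window held 1 of each, and the PDHA1 window held 0 ACGTG and 3 GCGTG. Of the 3 PDK2 windows, 1 held matches: 2 to ACGTG, which overlap as the palindrome CACGTG, and 1 to GCGTG. PDK4 had 0 matches in its single window. The PDHB window held the most of any member window, 6, with 3 to each motif, and 2 of its ACGTG matches overlap as the same palindrome. At least 5 matches, overlapping ones included, were held by 1.36% of all windows. DLAT and PDP2 held 3 each, and PDHX held 2 in the window of its second listed start. In PDP2, 2 of the 3 overlap as that palindrome too, and in DLAT the 2 GCGTG matches share 1 base. These are matches of letters in a window and say nothing of whether a factor bound there.

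The arrays were close in overall brightness, with medians over all probe sets from 6.22 to 6.34 on the log2 scale. Arrays of 1 group correlated at r = 0.993 to 0.996 over all probe sets, and arrays of different lines at 0.915 to 0.948. Of 7 plasma cell markers, 5 to 6 had a group mean above the filter level of 6.27 in each group. IRF4, PRDM1, XBP1 and SDC1 were at 7.90 to 11.73 throughout, whereas SLAMF7 was at 4.71 to 5.73 in RPMI8226 and KMS-11 and CD38 at or below 5.96 in KMS-11, U266 and IM-9. Of 4 B cell markers measured, 4 were above the filter level in each IM-9 group and 1 to 3 in the other groups. CD22 and PAX5 were at 8.48 or above only in the 2 IM-9 groups. CD79B was at 6.38 to 7.97 in every group, with 7.71 and 7.57 in parental and HR cells of U266. MS4A1 was at 11.33 and 11.41 in IM-9 and also at 9.50 and 10.19 in RPMI8226. Of 4 markers each of other cell types, 1 to 2 of the T and NK cell list were above the filter level (NKG7 at 6.48 to 7.12 in every group, CD8A at 6.35 and 6.51 in RPMI8226), 1 of the stromal list (COL1A1 at 6.83 to 7.29) and 0 of the myeloid list, while CD3D and CD3E, which define T cells, were at 4.60 to 5.07. Among genes known to respond to low oxygen, NDRG1, BNIP3 and VEGFA rose in 4 of 4 HR lines, and EGLN3 rose in 3, with a difference of 0.10 ± 0.10 in KMS-11 that did not pass.

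All levels below are log2 intensities, and a difference is the HR mean minus the parental mean of a line, given with its standard error. Each was tested in limma over the 16 arrays with Benjamini-Hochberg adjustment over the 12639 genes, and a gene is said to have risen or fallen in a line where the adjusted p was under 0.05. The labels leave it unsaid whether both arrays of a group are separate cultures, so these p-values cover array-to-array spread, which may be technical. In bulk RNA, fewer cells with a transcript and less of it per cell cannot be told apart.

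PDK1 encodes the kinase most closely tied to low oxygen, and it was the only member that rose in all 4 lines. In RPMI8226 its parental arrays read 9.76 and 9.87 and its HR arrays 10.55 and 10.64. In KMS-11 the readings were 9.48 and 9.49 in parental cells and 10.68 and 10.77 in HR cells. In U266 they were 9.67 and 9.56 against 10.85 and 10.82, and in IM-9 9.24 and 9.17 against 10.20 and 10.20. HR arrays were above parental arrays in every line without overlap, and even the lowest HR array of any line was above the highest parental array of any line. The differences were 0.78, 1.24, 1.22 and 1.00 in that order of lines (± 0.07 each), which are 1.72-fold, 2.36-fold, 2.34-fold and 2.00-fold, with adjusted p of 2.80e-06, 1.99e-07, 3.73e-08 and 2.81e-07 in limma. A rise called in all 4 lines was shared by 0.348% of tested genes, 44 in number. In KMS-11, PDK1 ranked 14 among the 12639 genes by HR minus parental, and it ranked 196 in RPMI8226, 125 in U266 and 176 in IM-9.

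The size of the PDK1 rise was not the same everywhere (F test over the 4 differences in limma, adjusted p = 0.00398). RPMI8226, whose parental cells had the highest PDK1 level of the 4 parental groups, rose less than KMS-11 by 0.46 ± 0.09 (adjusted p = 0.00467) and less than U266 by 0.44 ± 0.09 (adjusted p = 0.00381). The other 4 pairs of lines did not pass, and KMS-11 and U266 differed by 0.02 with a 95% interval from −0.19 to 0.22. In the order of the 8 group levels, U266-HR, KMS-11-HR and RPMI8226-HR stood at the top and no neighbours among them differed beyond the spread (adjusted p = 0.163 and 0.0906). U266-HR and RPMI8226-HR, at means of 10.84 and 10.60, are not neighbours, so those comparisons do not cover the gap between them. IM-9-HR followed 0.39 below RPMI8226-HR, still 0.39 above RPMI8226 parental cells (adjusted p = 0.000143). Below it, U266 and KMS-11 parental cells did not differ (adjusted p = 0.109), and IM-9 parental cells were lowest. With the line as the unit, the mean difference was 1.06 ± 0.10 (n = 4 lines), higher in 4 of 4, but it did not pass the adjustment over all genes (adjusted p = 0.0822).

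**Figure D1:**
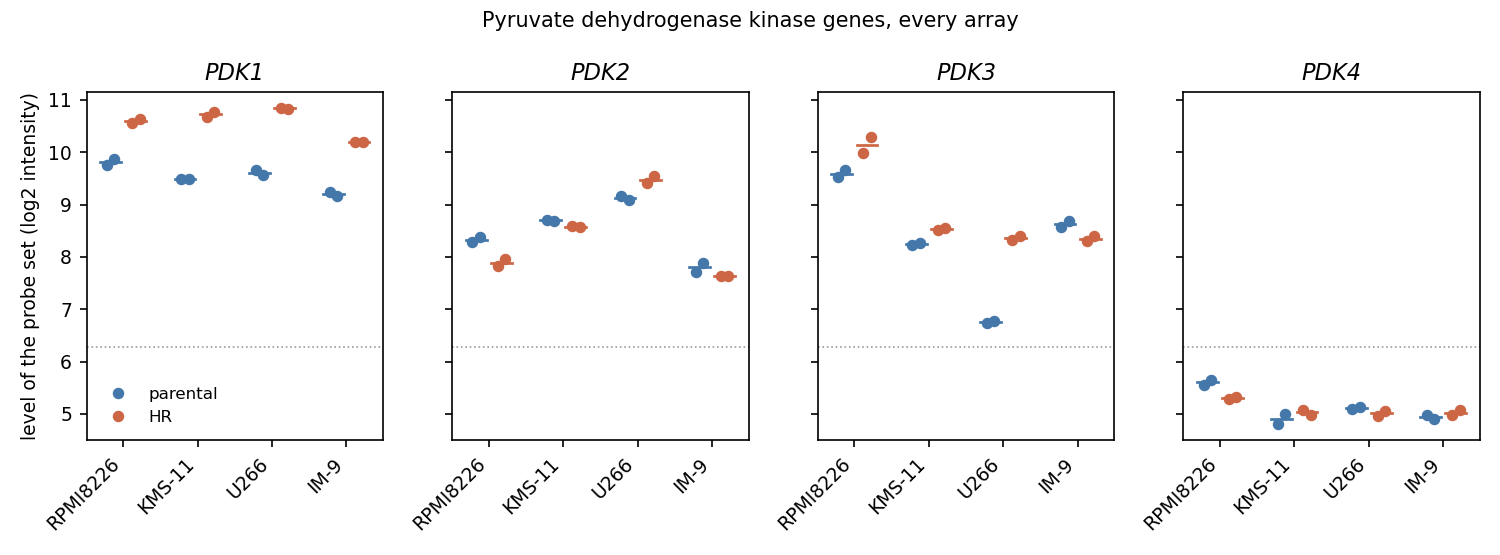
Log2 intensity of the kinase genes PDK1, PDK2, PDK3 and PDK4 on each of the 16 arrays, by cell line. Blue points are parental arrays (20% O2) and orange points HR arrays (1% O2), short bars are the group means (n = 2), and the dotted line is the filter level of 6.27. PDK1 HR arrays sit above parental arrays in all 4 lines, PDK3 climbs furthest in U266 (6.74 and 6.77 to 8.33 and 8.41), and PDK4 stays below the filter level throughout.

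PDK3, another kinase that HIF-1 is known to induce, had the largest difference of any member in 1 line, U266, and the widest range of differences between lines. In U266 its parental arrays were at 6.74 and 6.77, only a little above the filter level, and its HR arrays at 8.33 and 8.41. In RPMI8226 they were at 9.52 and 9.66 in parental cells and at 9.99 and 10.29 in HR cells. The KMS-11 arrays read 8.22 and 8.27 against 8.51 and 8.56. HR arrays were above parental arrays in these 3 lines without overlap, whereas in IM-9 the parental arrays, at 8.56 and 8.68, were above the HR arrays, at 8.30 and 8.40. The rise was 1.62 ± 0.09 in U266 (3.06-fold, adjusted p = 5.57e-08 in limma) and 0.55 ± 0.09 in RPMI8226 (1.46-fold, adjusted p = 0.000752). KMS-11 differed by 0.29 ± 0.09 without passing (adjusted p = 0.0752), and PDK3 fell by 0.27 ± 0.09 in IM-9 (adjusted p = 0.0355).

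These PDK3 differences were unequal between lines (F test in limma, adjusted p = 1.60e-06), and 5 of the 6 pairs of lines passed. The widest gap was between U266 and IM-9, at 1.89 ± 0.13 (adjusted p = 5.14e-07). Before any comparison of HR with parental cells the lines already stood far apart: RPMI8226 parental cells exceeded U266 parental cells by 2.84 (7.15-fold), the largest parental spread of the 8 members tested. Among HR groups the spread was 1.79. In the order of levels, RPMI8226-HR and RPMI8226 parental cells were at the top and U266 parental cells alone at the bottom, 1.49 below KMS-11 parental cells (adjusted p = 8.18e-09). The 5 groups between them, both of KMS-11, both of IM-9 and U266-HR, had no neighbours that differed beyond the spread. Only neighbours were compared in that order, and the IM-9 groups, which are not neighbours in it, differed by 0.27 (adjusted p = 0.0355). U266-HR thus lay within the range of levels of the other lines, and U266 parental cells did not. The 20 tested genes nearest to PDK3 on the X chromosome had a median difference of −0.05 in U266, where 4 rose and 4 fell. Of all tested genes, 9.68% rose and 8.42% fell in U266. The differences of the 20 neighbours ran from −0.91 in SAT1 to 2.00 in MAGEB16, the 1 that rose more than PDK3. PPP4R3C differed by 1.61. The part of the region in the PDK3 rise was not tested.

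Both smaller PDK3 differences depended on the settings. The fall in IM-9 did not pass without IM-9 parental array 2 (−0.21, adjusted p = 0.159), without IM-9-HR array 1 (−0.22, adjusted p = 0.185) or array 2 (−0.32, adjusted p = 0.0625), with no filter on low genes (adjusted p = 0.0555) or in a fit of the IM-9 arrays alone (adjusted p = 0.0715). The KMS-11 difference passed without RPMI8226-HR array 1 or array 2 (adjusted p = 0.0256 for each), after a further quantile normalization (0.33, adjusted p = 0.0290) and under 4 other settings (adjusted p from 0.0151 to 0.0405).

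PDK2, the isoform found in most tissues, moved in opposite directions in RPMI8226 and U266. RPMI8226 parental arrays read 8.28 and 8.38 and HR arrays 7.83 and 7.95, so HR cells were lower. U266 parental arrays read 9.17 and 9.09 and HR arrays 9.41 and 9.54, so there HR cells were higher. KMS-11 read 8.71 and 8.69 against 8.58 and 8.56, and IM-9 7.72 and 7.88 against 7.63 and 7.63, with HR arrays lower in both. No line had overlapping arrays. PDK2 fell by 0.44 ± 0.07 in RPMI8226 (adjusted p = 0.000719 in limma) and rose by 0.35 ± 0.07 in U266 (adjusted p = 0.00499), whereas the differences of −0.13 in KMS-11 and −0.17 in IM-9 did not pass (adjusted p = 0.339 and 0.0925).

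U266 differed in this PDK2 response from each of the other lines: by 0.79 ± 0.10 from RPMI8226, 0.47 ± 0.10 from KMS-11 and 0.52 ± 0.10 from IM-9 (adjusted p = 0.000136, 0.00879 and 0.00235; F test, adjusted p = 0.000425). The remaining 3 pairs did not pass. U266 was also the line with the highest PDK2 level in either state, U266-HR first and U266 parental cells second, and IM-9 the line with the lowest, with a gap of 1.33 between parental cells of U266 and IM-9 (2.51-fold) and of 1.85 between their HR cells (3.60-fold). The U266 rise did not pass without U266 parental array 2 (0.31, adjusted p = 0.0512) or without U266-HR array 2 (0.28, adjusted p = 0.0651), and the IM-9 difference passed without IM-9 parental array 1 (−0.25, adjusted p = 0.0404).

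PDK4 was below the filter level on 16 of 16 arrays and was not tested. Its readings ran from 4.80 to 5.65, the highest on the RPMI8226 parental arrays (5.55 and 5.65, against 5.29 and 5.33 in RPMI8226-HR). HR minus parental was −0.30, 0.13, −0.09 and 0.08 in the order of lines used for PDK1. At such dim readings an array cannot separate a low transcript level from background, so no direction is drawn.

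PDP1 encodes a catalytic subunit of the phosphatase that reactivates the complex, and it fell in 1 line. In RPMI8226 the parental arrays read 7.58 and 7.43 and the HR arrays 7.23 and 7.13, without overlap, and PDP1 fell by 0.32 ± 0.07 (adjusted p = 0.00432 in limma). Elsewhere the differences were −0.13 (KMS-11), 0.02 (U266, where arrays overlapped) and −0.10 (IM-9), and none passed. RPMI8226 thus combined a lower PDP1 level with higher PDK1 and PDK3 and lower PDK2. The 20 tested genes nearest to PDP1 on chromosome 8, 10 on each side, had a median difference of −0.18 in RPMI8226. There 7 of them fell and 0 rose, beside 15.3% and 10.7% of all tested genes, so lower values were not particular to PDP1. In the other lines the medians of the same genes, with KMS-11 first and IM-9 last, were −0.07, −0.07 and −0.01. The part of such a shift of the region in the PDP1 result was not tested.

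The PDP1 response of RPMI8226 was lower than that of U266 by 0.34 ± 0.10 (adjusted p = 0.0238), the only one of the 6 pairs that passed, and the F test over the 4 lines did not pass (adjusted p = 0.0653). That F test passed without RPMI8226 parental array 2 (adjusted p = 0.0287), after a further quantile normalization (0.0358) and with a stricter filter (0.0458). The pair lost its call without RPMI8226 parental array 1 (−0.26, adjusted p = 0.0826), RPMI8226-HR array 2 (−0.29, adjusted p = 0.0747), U266 parental array 1 (−0.32, adjusted p = 0.0755), U266-HR array 1 (−0.33, adjusted p = 0.0683) or U266-HR array 2 (−0.35, adjusted p = 0.0583). In the order of levels RPMI8226-HR was the lowest group, 0.32 below its own parental cells, and the 3 neighbouring pairs at the top, of KMS-11 and U266 groups, did not differ (adjusted p from 0.125 to 0.964).

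**Figure D2:**
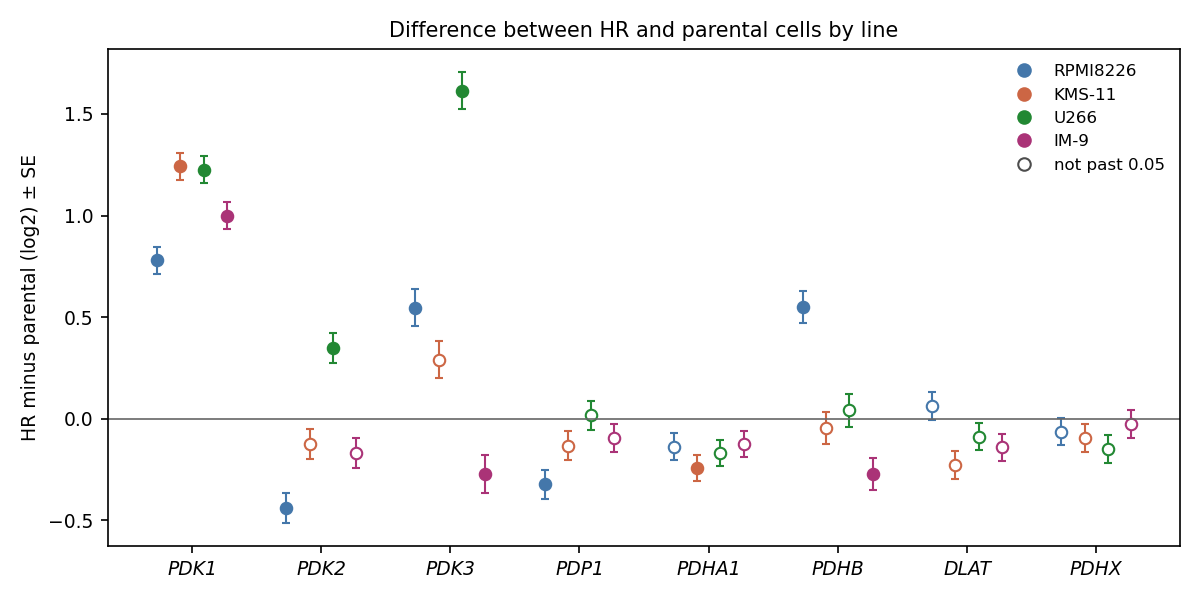
HR minus parental (log2) of the 8 tested members in each of the 4 lines. Bars are standard errors of the limma fit, and filled points passed the adjusted threshold of 0.05. PDK1 lies above 0 in all 4 lines (0.78 to 1.24), PDK3 ranges from −0.27 in IM-9 to 1.62 in U266, and PDHA1 lies below 0 in all 4 (−0.12 to −0.24).

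Among the subunits, PDHA1 was lower in HR cells of every line, by small amounts. This subunit carries the serines that the kinases phosphorylate. Its parental arrays against HR arrays read 10.03 and 9.96 against 9.93 and 9.79 in RPMI8226, and 10.02 and 10.07 against 9.78 and 9.83 in KMS-11. In U266 they read 9.17 and 9.15 against 8.94 and 9.04, and in IM-9 9.73 and 9.78 against 9.64 and 9.63. In no line did the arrays overlap, and the differences were −0.14, −0.24, −0.17 and −0.12 (± 0.07 each). PDHA1 fell past the threshold in KMS-11 (adjusted p = 0.0385 in limma), where the linear level decreased by 15.4%, and in RPMI8226, U266 and IM-9 the adjusted p was 0.150, 0.0957 and 0.161.

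The 4 PDHA1 differences did not differ between lines by the F test (adjusted p = 0.652), and their mean over lines was −0.17 ± 0.07 (n = 4 lines; adjusted p = 0.764, unadjusted p = 0.0437). A same sign in all 4 lines was seen in 3 of the 8 members, PDK1, PDHA1 and PDHX, and in 16.4% of all tested genes. The KMS-11 call rested on every array of that line: without KMS-11 parental array 1 or 2 or KMS-11-HR array 1 or 2 the differences were −0.27, −0.22, −0.22 and −0.26 and the adjusted p 0.123, 0.205, 0.198 and 0.123. It was also lost without either U266 parental array (adjusted p = 0.0547), without either IM-9-HR array (0.0565), after a further quantile normalization (0.0732), with no filter (0.0769) and in a fit of the KMS-11 arrays alone (0.0571). The U266 difference passed with array weights (0.0367) and with a trended robust prior (0.0419). By level, U266 stood apart from the other lines, its parental cells 0.47 below the next group, IM-9-HR (adjusted p = 2.60e-05). No other neighbours in the order differed beyond the spread. Only neighbours were compared in it, and the KMS-11 groups, which are not neighbours, differed by 0.24 (adjusted p = 0.0385 in limma).

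PDHB, the partner of PDHA1 in the first enzyme, rose in RPMI8226 and fell in IM-9. In RPMI8226 its parental arrays read 8.69 and 8.90 and its HR arrays 9.30 and 9.39. In IM-9 the parental arrays were the higher ones, at 8.77 and 8.87 against 8.56 and 8.53. The arrays of these lines did not overlap. The rise in RPMI8226 was 0.55 ± 0.08 (1.46-fold, adjusted p = 0.000236 in limma) and in IM-9 PDHB fell by 0.27 ± 0.08 (adjusted p = 0.0174). In KMS-11 and U266 the differences were −0.05 and 0.04, with arrays that overlapped, and neither passed.

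RPMI8226 differed from each other line in the PDHB response, by 0.60 ± 0.11 from KMS-11, 0.51 ± 0.11 from U266 and 0.82 ± 0.11 from IM-9 (adjusted p = 0.00283, 0.00489 and 0.000134; F test, adjusted p = 0.000470). RPMI8226-HR was the highest of the 8 groups, 0.52 above the next. The 20 tested genes nearest to PDHB on chromosome 3 had a median difference of 0.19 in RPMI8226. Of these neighbours 6 rose and 0 fell, beside 10.7% and 15.3% of all tested genes, and 2 rose more than PDHB. In KMS-11, U266 and IM-9 the median of those neighbours was −0.04, 0.01 and 0.04. There 0, 2 and 2 of them rose and 0, 1 and 1 fell. Of all tested genes 2.44%, 9.68% and 14.4% rose in these lines and 5.83%, 8.42% and 21.3% fell. The part of the region in the PDHB rise was not tested. The fall in IM-9 did not pass without IM-9 parental array 2 (−0.22, adjusted p = 0.0915), IM-9-HR array 1 (−0.29, adjusted p = 0.0576) or IM-9-HR array 2 (−0.26, adjusted p = 0.0872), nor in a fit of the IM-9 arrays alone (adjusted p = 0.0567).

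**Figure D3:**
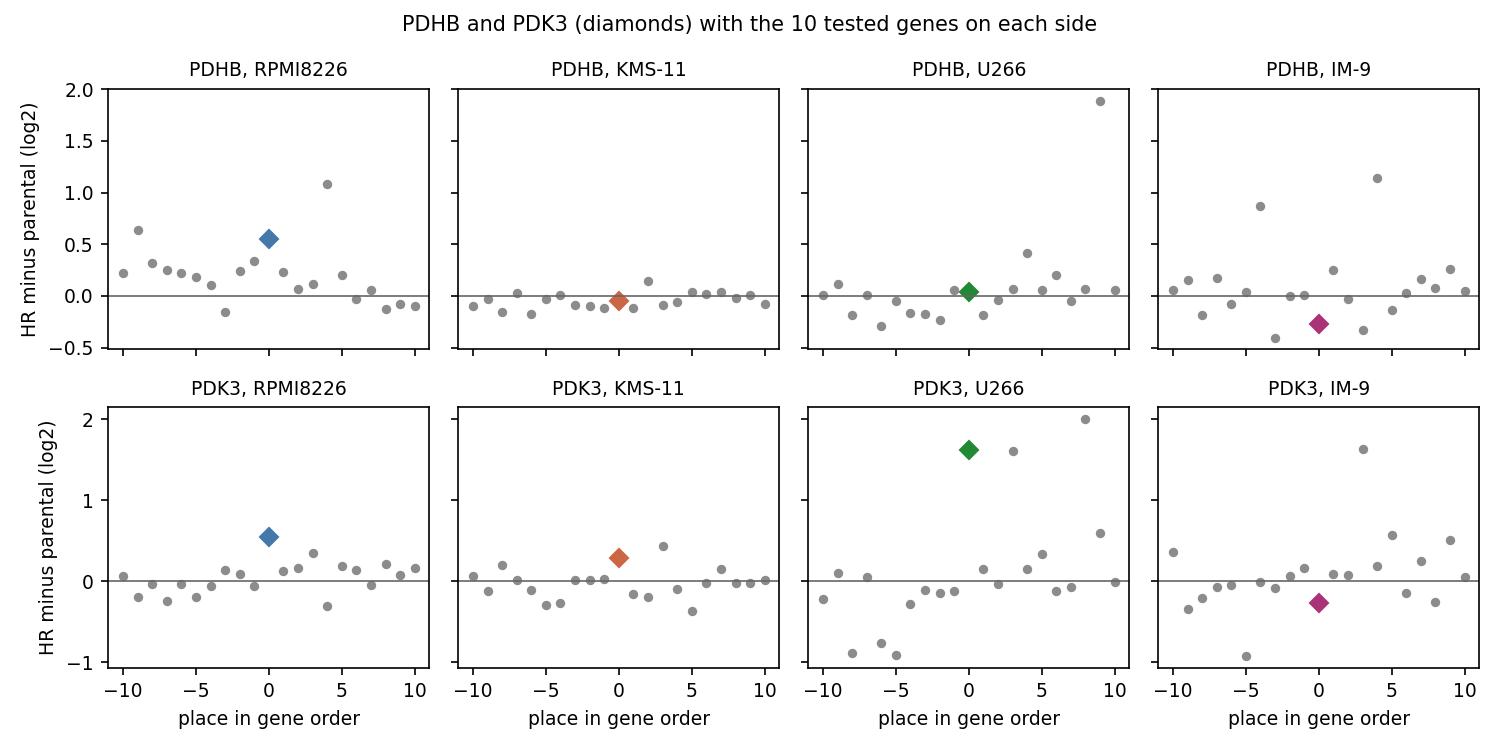
HR minus parental (log2) of PDHB (upper row) and PDK3 (lower row), as diamonds, and of the 10 tested genes on each side of them, as grey points, by place in the gene order and by line. In RPMI8226 the PDHB neighbours have a median of 0.19, with 2 above PDHB, and in U266 the PDK3 neighbours have a median of −0.05, with 1 above PDK3.

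DLAT, the acetyltransferase of the core, passed in 0 of the 4 lines in limma. Its differences were 0.06, −0.23, −0.09 and −0.14 in that same order (± 0.07 each), with adjusted p = 0.0560 in KMS-11 and unadjusted p under 0.05 in 1 line, KMS-11. The KMS-11 arrays read 8.56 and 8.55 in parental cells and 8.24 and 8.43 in HR cells, without overlap. This difference passed without KMS-11-HR array 2 (−0.32, adjusted p = 0.0381), as did the F test between lines (adjusted p = 0.0313, against 0.101 with all arrays), and under 3 other settings (adjusted p from 0.0209 to 0.0359). Levels of DLAT differed more by line: parental cells of IM-9 exceeded those of U266 by 1.61 (3.06-fold), and the 8 groups formed an upper set of RPMI8226 and IM-9, KMS-11 0.75 below it, and U266 a further 0.46 below (adjusted p = 3.01e-07 and 4.04e-05). Within a set, neighbours did not differ beyond the spread.

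PDHX, which ties DLD to the core, was called in 0 of the 4 lines as well, with unadjusted p under 0.05 in 1, U266. Its readings kept to a narrow range, from 8.14 to 8.74 over the 16 arrays. The differences were −0.06, −0.09, −0.15 and −0.03 (± 0.07 each), lower in 4 of 4 lines, with adjusted p from 0.155 to 0.790. Only 1 of its 7 neighbouring levels differed, RPMI8226-HR being 0.19 above KMS-11 parental cells (adjusted p = 0.0211). That gap did not pass without RPMI8226-HR array 2 or without KMS-11 parental array 2, which left 0 neighbours that differed. U266 had the highest means, but U266-HR did not differ from the next group, IM-9 parental cells (adjusted p = 0.370).

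**Figure D4:**
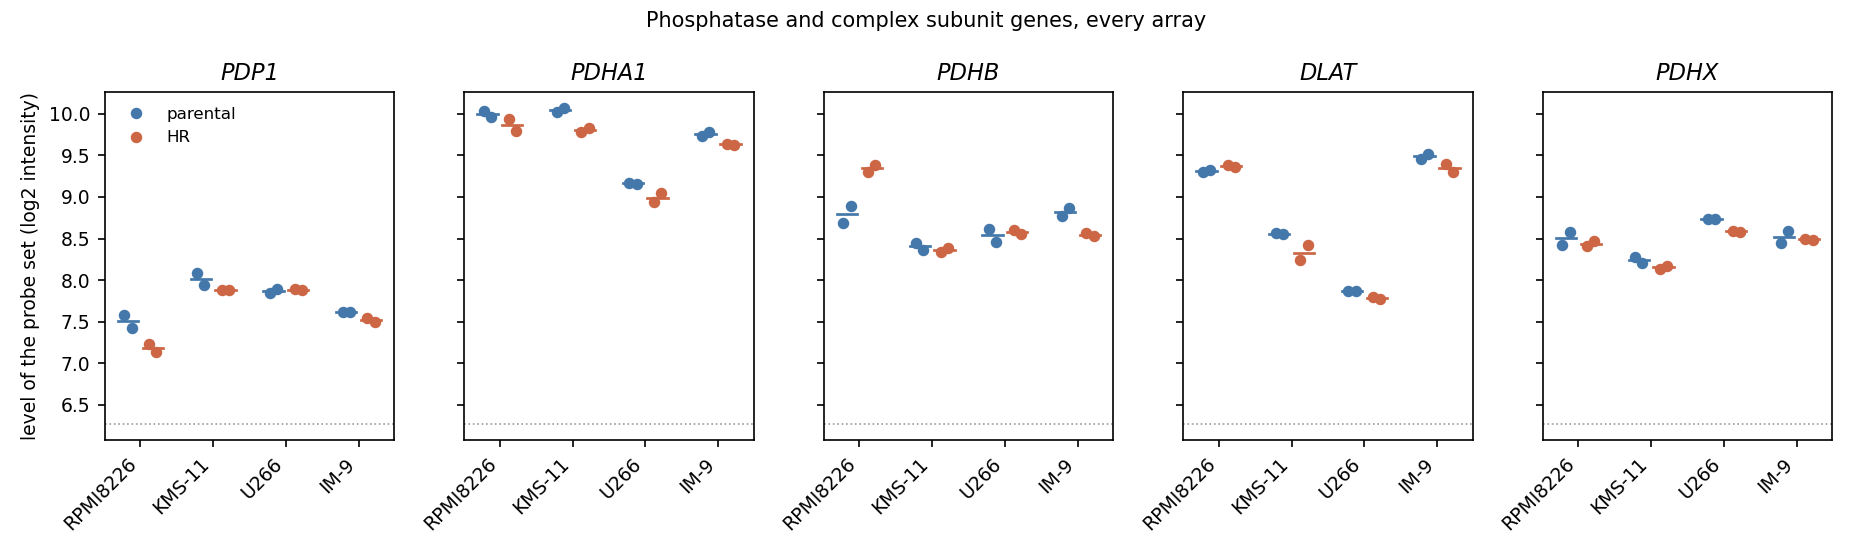
Log2 intensity of the phosphatase gene PDP1 and the subunit genes PDHA1, PDHB, DLAT and PDHX on each of the 16 arrays, by cell line. Blue points are parental arrays (20% O2) and orange points HR arrays (1% O2), short bars are the group means (n = 2), and the dotted line is the filter level of 6.27. Lines differ more than conditions for DLAT and PDHA1, with U266 lowest in both, and PDHB separates the conditions most in RPMI8226.

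Counted together, 5 of the 8 tested members were called in RPMI8226 (PDK1, PDK3 and PDHB rose, PDK2 and PDP1 fell), 62.5% against a background of 26% of all tested genes. In KMS-11, 2 were called (PDK1 rose, PDHA1 fell), 25% against 8.27%. In U266 3 rose, PDK1, PDK2 and PDK3, 37.5% against 18.1%. In IM-9 1 rose, PDK1, and 2 fell, PDK3 and PDHB, 37.5% against 35.7%, which is a share near the background. Of these 13 calls, 9 were among the 12 tests of kinase genes (3 genes in 4 lines), and PDK1 alone gave 4 of the 9. The phosphatase gene gave 1 call in 4 tests and the subunit genes 3 in 16. By line, 8.27% to 35.7% of all tested genes were called, a range that holds the shares of the phosphatase and subunit genes. The genes were listed with earlier results of these data known, so no result about roles is drawn. Median differences of the 8 members were −0.000635, −0.11, 0.03 and −0.13 in the same order of lines, beside −0.01, −0.02, −0.01 and −0.06 for all tested genes, so the members did not shift 1 way as a whole. HR and parental arrays did not overlap for 7, 7, 6 and 7 of the 8 members in the order of lines, where 57.7%, 59.1%, 62% and 65.1% of tested genes did not overlap.

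Differences between lines were common in these data, for the members and for other genes. The F test between HR effects passed for 4 of the 8 members, PDK1, PDK2, PDK3 and PDHB, against 45.4% of tested genes, and that between parental lines passed for all 8, against 94.3%. Calls in opposite directions in at least 1 pair of lines were seen for 3 members, PDK2, PDK3 and PDHB, and for 10.8% of genes. By pair, the effect differed for 2 members between RPMI8226 and KMS-11 (17.6% of genes), 5 between RPMI8226 and U266 (25.6%), 2 between RPMI8226 and IM-9 (31.5%), 2 between KMS-11 and U266 (14.1%), 1 between KMS-11 and IM-9 (17.5%) and 2 between U266 and IM-9 (30.3%). Of the 56 neighbouring levels of the 8 members 19 differed, against 24.5% of those of all genes. With the line as the unit, limma called 0 members and 0% of genes, while 2 members, PDK1 and PDHA1, and 793 genes had an unadjusted p under 0.05. Giving estimated weights to the 8 group means, which is another fit of the same test, called 1 member, PDK1 (1.13, adjusted p = 0.0319), among 6 of the 12639 genes.

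Other genes of the pathway were taken from a list of 52 genes in 7 groups, of which 43 were tested. In RPMI8226 4 rose and 6 fell, in KMS-11 3 and 5, in U266 3 and 8, and in IM-9 2 and 9, which is 23.3%, 18.6%, 25.6% and 25.6% of the list, beside 26%, 8.27%, 18.1% and 35.7% of all tested genes. The share was thus below that of all genes in RPMI8226 and IM-9 and above it in KMS-11 and U266. Its medians, 0.05, −0.01, −0.02 and −0.06, were each within 0.1 of the medians of all genes. LDHA, which makes lactate from pyruvate, rose in all 4 lines: by 0.37, 0.39 and 0.52 in RPMI8226, KMS-11 and U266 (± 0.06 each; adjusted p = 0.000487, 0.00171 and 3.35e-05) and by 0.17 in IM-9 (adjusted p = 0.0356). The IM-9 call on LDHA was lost without IM-9 parental array 1 (0.14, adjusted p = 0.176), IM-9-HR array 1 (0.17, adjusted p = 0.125) or array 2 (0.17, adjusted p = 0.114), without either KMS-11 parental array (adjusted p = 0.0506) or U266-HR array (adjusted p = 0.0507), with array weights (0.0598), with no filter (0.0706) and after quantile normalization (0.11, adjusted p = 0.103). The carrier that brings pyruvate into mitochondria is built from MPC1 and MPC2. MPC1 fell by 0.32 ± 0.08 in U266 (adjusted p = 0.0109) and its differences of 0.20, −0.22 and −0.21 in RPMI8226, KMS-11 and IM-9 did not pass, while MPC2 rose by 0.25 ± 0.07 in RPMI8226 only (adjusted p = 0.0222); whether that last response differed between lines did not pass the F test (adjusted p = 0.0723). The MPC1 call did not hold without U266 parental array 2 (−0.28, adjusted p = 0.0922), U266-HR array 1 (−0.32, adjusted p = 0.0582) or U266-HR array 2 (−0.32, adjusted p = 0.0639), nor the MPC2 call without RPMI8226 parental array 1 (0.18, adjusted p = 0.161) or RPMI8226-HR array 2 (0.19, adjusted p = 0.141) or with array weights (adjusted p = 0.0601).

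DLD, the complex's enzyme shared with its relatives, fell by 0.21 ± 0.06 in U266 (adjusted p = 0.0270), a call lost with no filter (adjusted p = 0.0556) and without any 1 of the 4 U266 arrays (differences −0.19, −0.23, −0.20 and −0.22 without parental array 1, parental array 2, HR array 1 and HR array 2; adjusted p = 0.148, 0.0766, 0.138 and 0.0985). CS, citrate synthase, which takes up the acetyl-CoA the complex makes, fell by 0.58 ± 0.06 in IM-9 (adjusted p = 9.31e-06). It fell less in KMS-11 and U266 (−0.21 and −0.19, adjusted p = 0.0385 and 0.0342). Both of these smaller calls were lost with no filter and without any 1 of the line's own arrays. ME1, which makes pyruvate from malate in the cytosol, also fell in IM-9 (adjusted p = 7.49e-10). Its mean there went from 8.29 to 5.99, which is below the filter level. Against that level the fall was at least 4.06-fold. In U266 ME1 fell by 0.46 ± 0.08 (adjusted p = 0.000862). PPM1K, the phosphatase of the related branched-chain complex, fell by 0.90 ± 0.06 in IM-9 and by 0.44 ± 0.06 in KMS-11 (adjusted p = 4.55e-07 and 0.00119). In U266 PPM1K fell by 0.24 ± 0.06 (adjusted p = 0.01995), to a mean of 6.13, which is below the filter level. That U266 call was lost with the mean of all its probe sets (−0.05, adjusted p = 0.749), after a further quantile normalization (0.0572) and with a trended robust prior (0.0561). Other leading changes in KMS-11 were in SLC16A7, a pyruvate and lactate transporter (−0.58 ± 0.10, adjusted p = 0.00370), SLC19A2, a thiamine transporter (−0.57 ± 0.08, adjusted p = 0.000915), and BCKDHA, of the branched-chain complex (0.43 ± 0.07, adjusted p = 0.00307). BCKDHA rose in U266 too (0.47 ± 0.07, adjusted p = 0.000412). SLC16A7 fell in RPMI8226 too (−0.29 ± 0.10, adjusted p = 0.0487), a call lost in 12 of the 16 fits with 1 array left out. SLC19A2 fell in IM-9 as well (−0.49 ± 0.08, adjusted p = 0.000375) but rose in RPMI8226 (0.29 ± 0.08, adjusted p = 0.0152). The RPMI8226 call on SLC19A2 was lost without RPMI8226 parental array 1 (0.29, adjusted p = 0.0581), parental array 2 (0.30, adjusted p = 0.0591) or RPMI8226-HR array 1 (0.23, adjusted p = 0.113). In RPMI8226, NFU1, which helps supply iron-sulfur clusters for lipoate synthesis, rose by 0.56 ± 0.13 (adjusted p = 0.00734) and DBT, the branched-chain counterpart of DLAT, fell by 0.42 ± 0.09 (adjusted p = 0.00363). The NFU1 call was lost without RPMI8226 parental array 1 (0.33, adjusted p = 0.0788) or RPMI8226-HR array 2 (0.47, adjusted p = 0.0664).

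Among transcription factors known to control PDK genes, the message of HIF1A did not follow PDK1. HIF1A fell by 0.67 ± 0.09 in U266 (adjusted p = 0.000211), where PDK1 and PDK3 rose, and its differences of 0.01, 0.10 and 0.11 in RPMI8226, KMS-11 and IM-9 did not pass; HIF-1 is known to be set mainly through the stability of its protein, which arrays do not measure. EPAS1, which encodes HIF-2 alpha, fell by 1.47 ± 0.11 in RPMI8226 (adjusted p = 6.22e-07), and NR3C1, the glucocorticoid receptor, fell there by 0.54 ± 0.08 (adjusted p = 0.000280). MYC rose by 0.55 ± 0.06 in U266 (adjusted p = 2.51e-05), from a parental mean of 6.69, and fell by 0.77 ± 0.06 in IM-9 (adjusted p = 9.03e-07). PPARGC1A, a coactivator of mitochondrial genes, fell by 0.91 ± 0.15 in U266 (adjusted p = 0.000871).

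**Figure D5:**
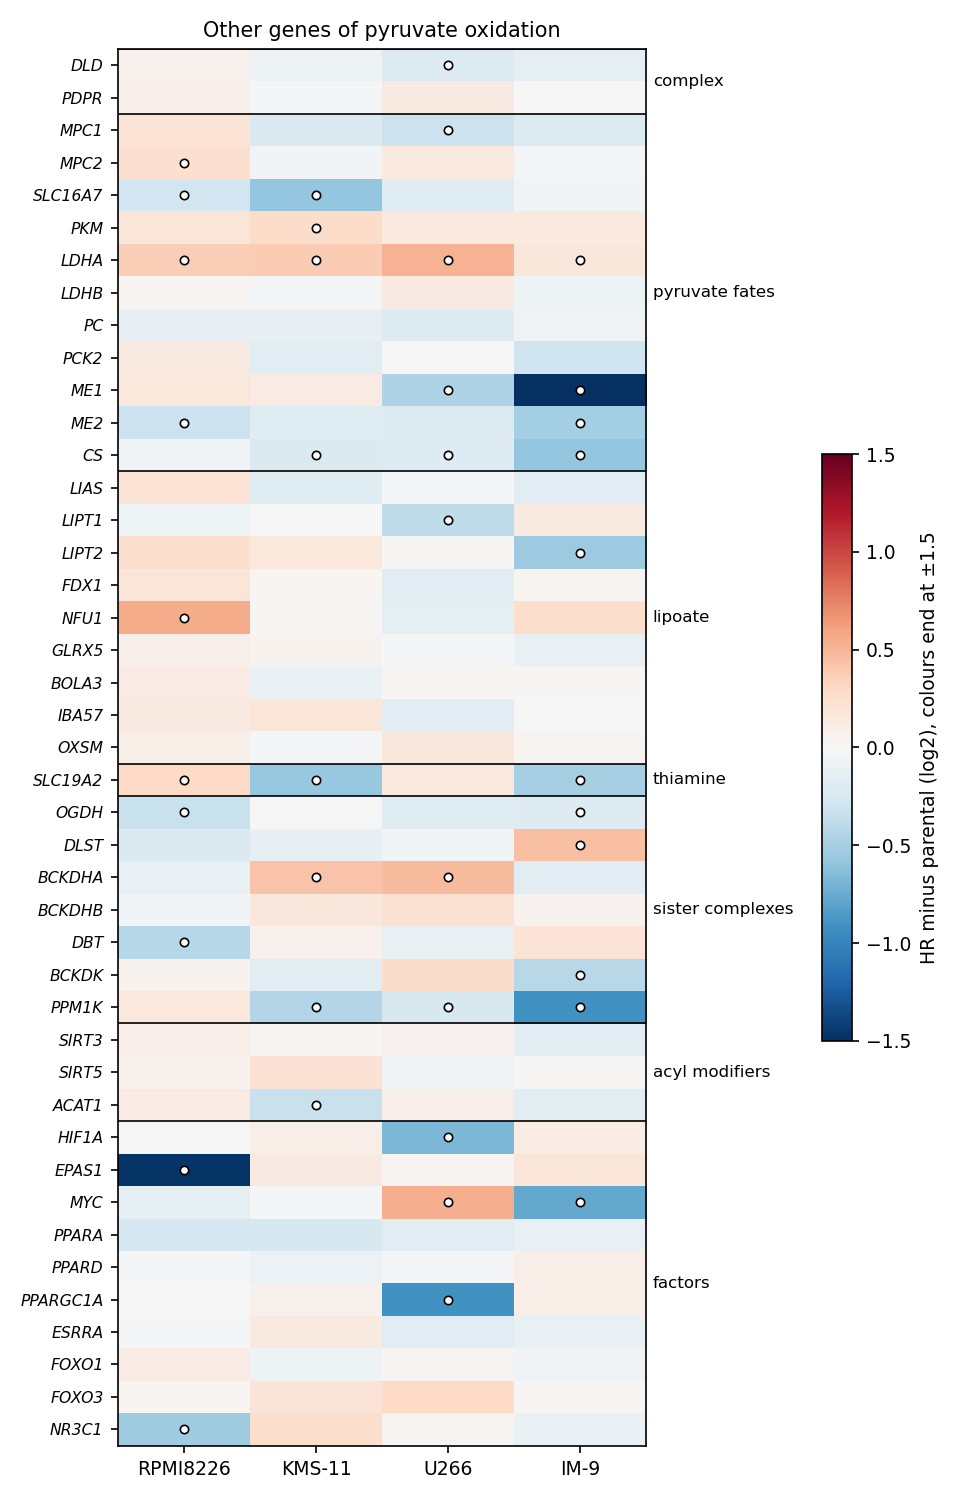
HR minus parental (log2) in the 4 lines for the 43 tested genes of the pathway list, as colours that end at ±1.5, with a white dot where the difference passed the threshold. LDHA lies above 0 in all 4 lines (0.17 to 0.52), and SLC19A2 rises in RPMI8226 (0.29) and falls in KMS-11 and IM-9 (−0.57 and −0.49).

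The genes whose levels followed a member most closely over the 8 group means were listed for PDK1, PDK3 and PDHA1, as a description with no test, since the 2 groups of a line share its background. For PDK1 they were RLF (Pearson r = 0.967), PPFIA4 (0.958), BNIP3L (0.935), NARF (0.932) and KDM3A (0.928). For PDK3 they were TPI1 (r = 0.981), IL27 (0.974), ADGRD2 (0.961), HPRT1 (0.960) and ADAMTS2 (0.954), and for PDHA1 PPARA (r = 0.989), NKRF (0.987), DGKZ (0.985), RPUSD4 (0.984) and SIMC1 (0.984). Each set holds the highest 5 of the 12639 tested genes, over only 8 points.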

How the data were processed

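The deposited values are log2 intensities, 1 per probe set and array, already summarised by the authors. The submitters' processing notes name the Affymetrix Expression Console, version 1.3.0; background correction and normalization are not given in the sources used here. Of 33297 probe sets, 19460 carried 1 gene symbol in the platform annotation, 1754 carried several and 12083 were not listed in it. Names were assigned by matching probe set identifiers to that annotation, which is of an older array design than the one the series names. Samples were grouped by their labels into 8 groups of 2 arrays, and 0 pairs of arrays were identical. The number of arrays limits the precision.

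Genes above 6.27 on at least 2 arrays were fitted as 8 groups by lmFit and eBayes of limma 3.58.1 under R 4.3.3 (2-sided), and p-values were adjusted by Benjamini and Hochberg over 12639 genes. For the test across lines, arrays of a group were averaged and the line was a block. Scripts were tested on simulated data. The members and lists were chosen with earlier results of these data known. Named are all members, the called pathway genes with the largest change (up to 4 per line) with MPC1, MPC2, LDHA, DLD and HIF1A, 5 genes known to respond to oxygen (CA9 is not analysed here), and the 5 genes most alike PDK1, PDK3 and PDHA1. Alternatives were a further quantile normalization, no filter and a stricter one, the mean of probe sets, array weights, a trended robust prior, the array number as a block, each line's arrays alone, and leaving out each array or line. Same-numbered arrays of a line had deviations that correlated at 0.205, 0.0712, −0.0480 and 0.109, so the numbers were not taken as pairing the arrays.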

Additional observations from a re-analysis of the deposited data

Results flagged for a closer look

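The HR effect on 4 members differed between the 4 lines by an F test in limma. For PDK1 the adjusted p was 0.003975, and PDK1 rose in 4 of 4 lines, from 0.78 in RPMI8226 to 1.24 in KMS-11 (log2). For PDK2 it was 0.0004246, with −0.44 in RPMI8226 and 0.35 in U266. For PDK3 it was 1.604e-06, with −0.27 in IM-9 and 1.62 in U266. For PDHB it was 0.0004695, with −0.27 in IM-9 and 0.55 in RPMI8226. The same test passed for 45.4% of all tested genes, and its p-values measure only the spread between the 2 arrays of a group.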

How the results depend on the processing

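Counts of called members kept within 1.5 times the value reported for RPMI8226, U266 and both F tests under every alternative run. Across lines, 1 member was called with array weights, there estimated on the group means, against 0. With the array number as a replicate block 1 was called too, PDK1 (1.06, adjusted p = 7.72e-05), among 176 genes against 0, a fit in which arrays of a line count as separate units; within lines this block added 1 member call, PDK3 in KMS-11 (adjusted p = 0.0313), and changed no other. In KMS-11 the 2 called members became 1 with no filter, 4 with array weights and 4 with the trended robust prior, and 1 to 3 with 1 array left out; the pathway count of 8 became 13 with array weights and 5 to 9 with 1 array left out. In IM-9 the 3 called members became 1 with the line's arrays alone and 1 to 4 with 1 array left out. In U266 the pathway count of 11 ran from 6 to 12 with 1 array left out.

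Some small differences that had not passed changed sign. Without RPMI8226, the mean over lines was −0.0932 for PDHB and 0.0176 for PDK2. With 1 array left out, PDHB in U266 ran from −0.0354 to 0.116, PDP1 in U266 from −0.0042 to 0.0374, PDHX in IM-9 from −0.0977 to 0.0443 and PDHX in RPMI8226 from −0.137 to 0.0096. KMS-11 had 1045 called genes in all, 348 to 401 without 1 of its own arrays and 2083 with array weights. The cause of these changes was not tested. With 2 arrays per group, differences of about the size of those of PDHA1 lie at the edge of what was called.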

Other observations

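Over the 8 group means, with no test and with each line giving 2 points, PDK2 and DLAT ran opposite (Pearson r = −0.94) and so did PDP1 and PDHB (r = −0.88). These pairs were picked for having the largest absolute r among all pairs of the tested members. U266 had the highest PDK2 and the lowest DLAT in both states.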
